A study of Drosophila montana with 9 samples.

Results

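*Dca* (*Drosophila cold acclimation gene*, CG7390) is 1 of the 108 genes of a candidate gene microarray for the malt fly *Drosophila montana*, and 1 of only 2 genes placed on the array for their role in cold tolerance. It was described through all experimental probes of the scanner files whose name carries its symbol. These were 4 probes of the 208 distinct experimental probes on the array. All 4 belonged to the 197 probes used here and were well above background on all 9 arrays, so none was lost to a filter.

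RNA came from whole bodies of females of the isofemale line O3F66 from Oulanka in Finland, which had been kept in continuous light at 19°C, with 13 females pooled per sample. Diapausing females were 14 days old and had been kept for 2 weeks in 16 h of light and 8 h of darkness per day at 16°C. Reproducing females were also 14 days old and had been kept in 24 h of light at 16°C. Young females were 1 day old and were taken straight from culture in 24 h of light at 19°C. Each group had 3 arrays, named here by their sample numbers (diapausing 27, 42 and 43, reproducing 22, 23 and 40, young 12, 16 and 17). The labels give the groups as abbreviations, and the females are called diapausing or reproducing by their light regime. No inspection of ovaries is stated in the sources used here. Each sample was its own pool of flies, and whether the pools came from separate cultures is not stated, so p-values measure the spread between these pools. All samples are from 1 line, so the spread between arrays holds no genetic variation between lines. The 2 groups of old females differ in light alone, whereas young females differ from both in age and temperature and from diapausing females also in light, and these factors cannot be told apart.

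*Dca* encodes the fly relative of regucalcin, a cytosolic calcium-binding protein that in mammals is known to act on calcium pumps and to decline with age. In *D. melanogaster* the gene is known for a rise of its transcript during mild cold acclimation. Reproductive diapause is the arrest of ovary growth with which northern flies pass the winter as adults, and it is induced by short days.

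The probes were 60 bases long and were designed on 3 sequenced regions of the gene, called DCA_1, DCA_2 and DCA_3 in the scanner files. DCA_3 had 2 probes, called DCA_3a and DCA_3b here. The sequences are shown because the probes of the regions behaved differently, and capitals mark the 46 bases that both DCA_3 probes share:
DCA_1: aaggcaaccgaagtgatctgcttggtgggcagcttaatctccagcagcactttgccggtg
DCA_2: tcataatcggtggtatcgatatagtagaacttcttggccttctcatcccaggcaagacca
DCA_3a: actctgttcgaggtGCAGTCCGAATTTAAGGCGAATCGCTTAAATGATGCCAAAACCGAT
DCA_3b: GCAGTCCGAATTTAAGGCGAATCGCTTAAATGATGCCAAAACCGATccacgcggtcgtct

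DCA_3b thus starts 14 bases further along than DCA_3a, and the pair is not an independent measurement of the transcript. Their GC content was 55% for DCA_1, 45% for DCA_2, 45% for DCA_3a and 50% for DCA_3b, within the range of 31.7 to 65% (median 45%) over all 208 probes. None of the 204 other probes shared a run of 16 bases with any of them on either strand. The scanner files give no genome position for the probes, and the position of the gene in the *D. montana* genome was not analysed here. Each probe had reading frames without a stop codon on both strands, so stop codons alone did not settle the strand it detects. Which strand of each probe encodes part of the regucalcin protein was not tested.

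One array stood apart in its *Dca* spots and in its correlation with its group. On the array of reproducing females 40, Feature Extraction, the software that turns the scan into spot intensities, corrected the *Dca* spots for their place on the array by factors between 0.338 and 1.56, against 0.806 to 1.24 on the other 8 arrays. Over all experimental spots its factors ran from 0.241 to 1.93, and low factors were also present on the arrays of young females 16 (from 0.210) and 17 (from 0.214). Its values had the lowest correlation with those of its own group (median r = 0.924 over the probes, against 0.954 to 0.984 for the other arrays). The main results are therefore also given without it. Between 120 and 147 of the 197 probes were well above background on each array.

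*Dca* gave a higher signal in diapausing females than in both other groups, most clearly with the DCA_3 probes. The mean spot signal of DCA_3a was 60007, 52168.5 and 51991 on the arrays of diapausing females 27, 42 and 43, against 17340, 11999.8 and 10698 in reproducing females 22, 23 and 40 and 11792, 9156 and 11895 in young females 12, 16 and 17. The signal of DCA_3b was 55769, 70529 and 52778 in diapausing females, against 14445, 11859 and 10504 in reproducing females and 11708, 10461 and 11050 in young females. With both probes all arrays of diapausing females were far above all arrays of the other groups, before any scaling between arrays. Since whole bodies were used, fewer cells of a type and less RNA per cell cannot be told apart in these values. The spots were far above their local background (between 39 and 52), had no saturated pixel, and had a pixel CV between 5.11% and 14.3%.

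The probes of the other 2 regions had signals much nearer to the background. DCA_1 had mean spot signals of 444, 380 and 404 in diapausing females, against 229, 195 and 103 in reproducing females and 237, 168 and 213 in young females. Here again the arrays of diapausing females were above all others. DCA_2 had 284, 226 and 231 in diapausing females, against 177, 162 and 196 in reproducing females and 196, 148 and 189 in young females. Its arrays of diapausing females were also the highest, but the margin between 226 in diapausing females and 196 in both other groups was small. Negative control spots averaged between 54.1 and 68.1 per array, so the spots of DCA_2 were not far from the level of a spot without target. The same held for DCA_1 in reproducing and young females, and its spot at 103 was the dimmest of both probes. Levels of different probes are not compared, since their brightness also depends on the probe.

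The signals were then put on a common scale by variance stabilizing normalization (VSN), whose values are on a log2 scale, and tested with limma over all 9 arrays. A feature was called when its fold change was over 2 and its Benjamini-Hochberg adjusted p under 0.05. The normalized value of DCA_3b averaged 15.78 ± 0.35 in diapausing, 13.44 ± 0.32 in reproducing and 13.62 ± 0.03 in young females (SD, n = 3 each). That of DCA_3a averaged 15.66 ± 0.48 in diapausing, 13.55 ± 0.44 in reproducing and 13.60 ± 0.17 in young females. For DCA_1 the means were 8.42 ± 0.46 in diapausing, 6.86 ± 0.75 in reproducing and 7.53 ± 0.22 in young females. For DCA_2 they were 7.56 ± 0.54 in diapausing, 6.96 ± 0.18 in reproducing and 7.27 ± 0.19 in young females. The array of diapausing females 27 was the highest with all 4 probes.

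**Figure D1:**
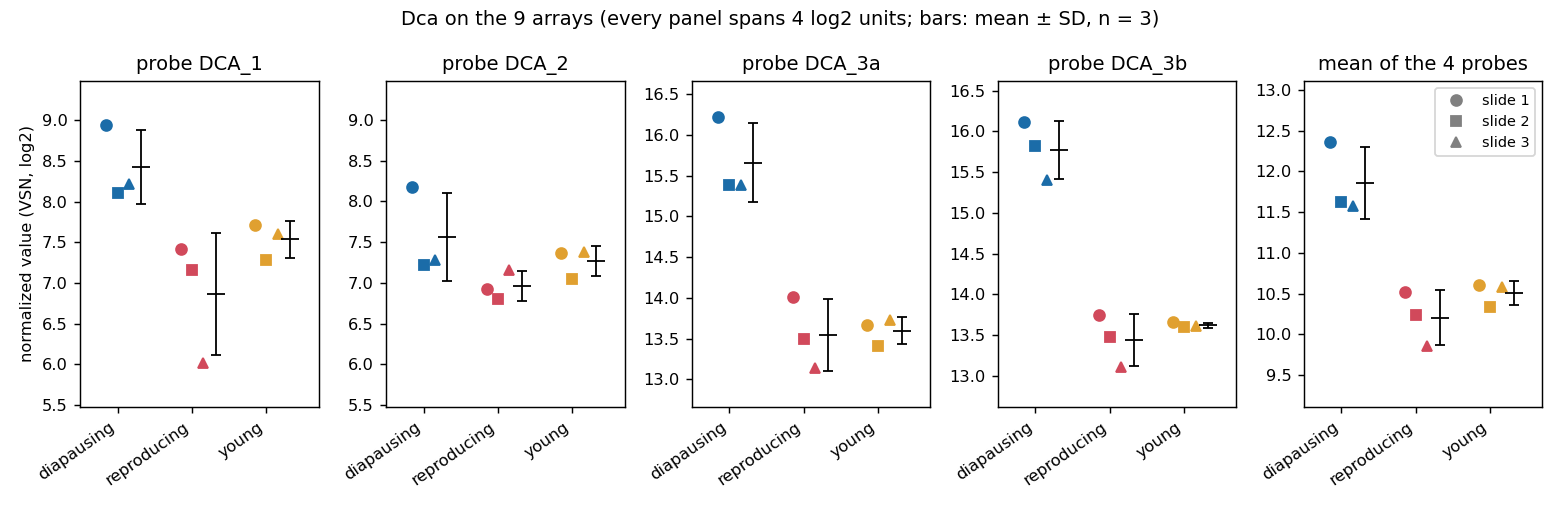
Normalized values (VSN, log2) of the 4 *Dca* probes and of their mean on the 9 arrays, with 1 point per array, its shape giving the slide, and bars giving the mean ± SD of each group (n = 3). With DCA_3a, DCA_3b and the mean of the probes the 3 arrays of diapausing females lie above the other 6, whereas DCA_2 overlaps between diapausing and young females.

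Averaged over its 4 probes, *Dca* had normalized values of 12.36, 11.63 and 11.57 in diapausing females 27, 42 and 43, against 10.52, 10.23 and 9.85 in reproducing females 22, 23 and 40 and 10.60, 10.34 and 10.58 in young females 12, 16 and 17. The mean was 11.85 ± 0.44 in diapausing, 10.20 ± 0.34 in reproducing and 10.51 ± 0.15 in young females. Diapausing females thus stood apart at the top, and the arrays of the 2 other groups overlapped.

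The comparison of diapausing with reproducing females asks which genes differ between the 2 light regimes at the same age and temperature. The regimes were used to set the reproductive state, so light and reproductive state cannot be told apart in it. *Dca* was higher in diapausing females by 1.65 on the log2 scale (SE 0.29, 95% interval 0.99 to 2.32, a 3.14-fold difference, limma adjusted p = 0.0415). It was the gene with the highest fold change of the 108 and the only one called, 0.926% of the genes. With slide as a block the call was lost (limma adjusted p = 0.0590), and 0 genes were called. Next in order were *Arr2*, an arrestin of the photoreceptors, at 1.41 (SE 1.34), and *Gapdh1* at 1.20 (SE 0.63), neither of which was called. *Gapdh1* is a glycolytic enzyme gene and belongs to the housekeeping genes of the array. The 3 arrays of diapausing females lay above the 3 of reproducing females, as was so for 3.7% of the genes. An exact two-sided permutation test of the gene value gave p = 0.1, the smallest that 3 against 3 arrays allow. The gene value gives the dim probes DCA_1 and DCA_2 the same weight as the DCA_3 probes, so its size depends on this averaging. With the brightest probe of each gene it was 2.33 (limma adjusted p = 0.00224). With regions averaged first it was 1.46 (limma adjusted p = 0.101) and not called.

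Tested one by one among the 197 probes, DCA_3b and DCA_3a had the highest log2 fold changes of all probes in this comparison and were both called, against 1.52% of all probes. DCA_3b was 2.33 higher in diapausing than in reproducing females (SE 0.28, 5.04-fold, 95% interval 3.23 to 7.85, limma adjusted p = 0.00403). DCA_3a was 2.11 higher (SE 0.34, 4.33-fold, interval 2.54 to 7.36, limma adjusted p = 0.0167). DCA_1 had the fourth highest log2 fold change, 1.56 (SE 0.41, 2.94-fold, interval 1.54 to 5.63), but was not called (limma adjusted p = 0.180). It was called in 5 of 15 alternatives, such as a trimming quantile of 0.9 in VSN (1.84, limma adjusted p = 0.0230) and scaling by the 75th percentile after normexp (1.63, limma adjusted p = 0.00386). DCA_2 had 0.60 (SE 0.31, 1.52-fold, interval 0.924 to 2.49, limma adjusted p = 0.608) and ranked 30 of 197. Its value was 0.35 without diapausing 27 and 1.24 with the processed signal scaled by the 75th percentile, and it was called in 0 of 15 alternatives. An unadjusted p under 0.05 was reached by 3 of the 4 probes, against 8.63% of all probes. The 3 arrays of diapausing females lay above the 3 of reproducing females with all 4 probes, against 5.58% of all probes.

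**Figure D2:**
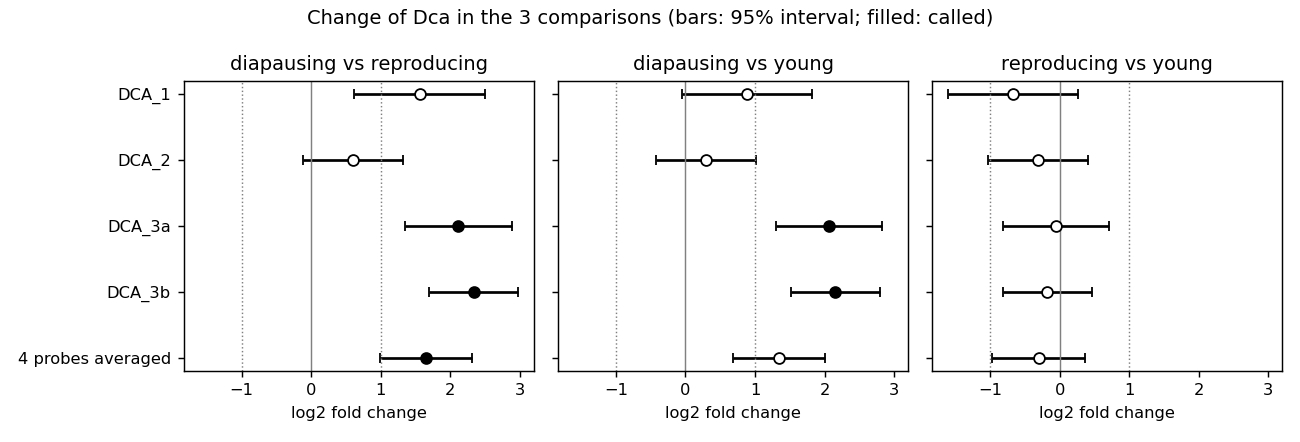
Log2 fold changes of each *Dca* probe and of the 4 probes averaged in the 3 comparisons, first-named group over second, with 95% intervals from limma and filled points for calls (dotted lines: 2-fold). The DCA_3 probes lie above 2 on the log2 scale in both comparisons with diapausing females and DCA_2 below 1, and all 5 intervals of reproducing against young females include 0.

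Against young females, *Dca* was 1.35 higher in diapausing females on the log2 scale (SE 0.29, interval 0.68 to 2.01, a 2.55-fold difference) and narrowly missed the call (limma adjusted p = 0.0523), where 1.85% of the genes were called. Its 3 arrays of diapausing females lay above those of young females, again as for 1.85% of the genes. Its fold change ranked 2 of 108, after the small heat shock gene *Hsp26* at 2.39. The median of all genes was -0.39 in this comparison, so that *Dca* was 1.74 above the median gene. In diapausing over reproducing females, where that median was -0.03, it was 1.68 above it. The value over young females also depended on how the probes were combined. With the brightest probe of each gene *Dca* was at 2.15 over young females (limma adjusted p = 0.00419) and called. With regions averaged first it was at 1.10 (limma adjusted p = 0.102) and not called. The DCA_3 probes were both called, against 3.05% of all probes. DCA_3b was 2.15 higher in diapausing than in young females (SE 0.28, 4.45-fold, limma adjusted p = 0.00749) and DCA_3a 2.06 higher (SE 0.34, 4.17-fold, limma adjusted p = 0.0200). For DCA_1 the difference was 0.89 on the log2 scale (SE 0.41, limma adjusted p = 0.421) and for DCA_2 it was 0.29 (SE 0.31, limma adjusted p = 0.730), neither of them called. With the processed signal scaled by the 75th percentile DCA_1 was called at 1.95 (limma adjusted p = 0.0169), as it was in 3 of 15 alternatives, while DCA_2 was at 1.30 and not called. Without diapausing 27 the value of DCA_2 was 0.0095. At an unadjusted p under 0.05 there were 2 of the 4 probes, against 13.2% of all probes. The arrays of diapausing females lay above those of young females with 3 of the 4 probes, against 4.06% of all probes, and overlapped with DCA_2. The comparison shares its arrays of diapausing females with the preceding one, so the 2 results are not independent.

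No difference of *Dca* between reproducing and young females passed the test. The log2 fold change of the gene was -0.30 (SE 0.29, interval -0.97 to 0.36, limma adjusted p = 0.598) with VSN, and its sign turned with other scalings (0.23 with the 75th percentile of each array and 0.14 relative to the housekeeping genes). It ranked 64 of 108 genes with VSN, in a comparison in which 8.33% of the genes were called. The probes had log2 fold changes of -0.67 for DCA_1, -0.31 for DCA_2, -0.05 for DCA_3a and -0.18 for DCA_3b, with limma adjusted p-values between 0.418 and 0.949 and 0 calls (4.57% of all probes were called, and 0 of these 4 had an unadjusted p under 0.05, against 16.8% of all probes). With none of the 4 probes did the arrays of reproducing females lie above all of young females, as was so for 8.12% of the probes and 5.56% of the genes. The intervals of the DCA_3 probes were wide enough to hold moderate differences in either direction, since they ran from 0.567 to 1.64-fold for DCA_3a and from 0.567 to 1.38-fold for DCA_3b.

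**Figure D3:**
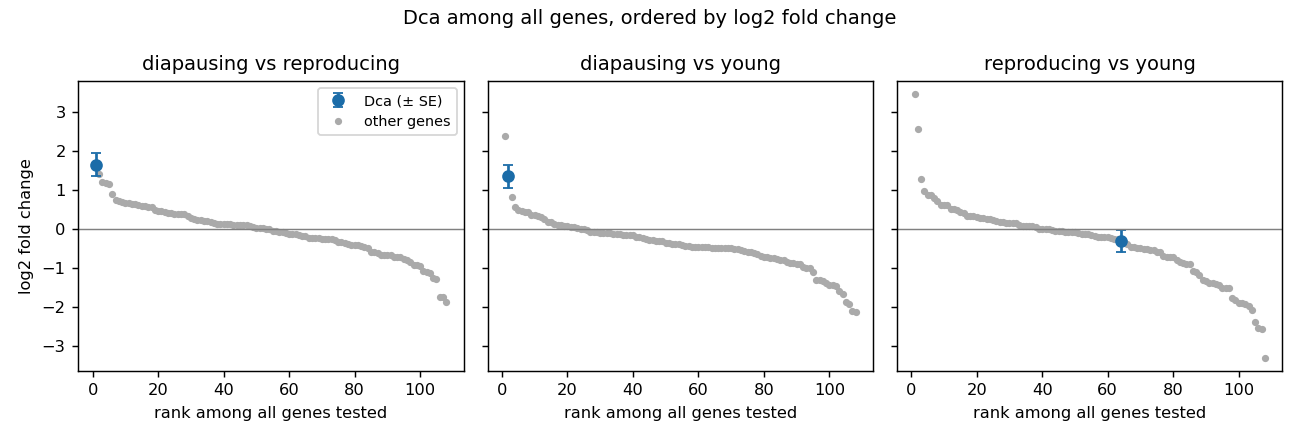
Log2 fold changes of all 108 genes in the 3 comparisons, ordered from highest to lowest, with *Dca* in blue (± SE). *Dca* is the first of 108 in diapausing over reproducing females, the second in diapausing over young females and number 64 in reproducing over young females, where its sign depended on the scaling.

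The log2 fold changes of the regions were also set against each other. The only test made of these differences was an exact permutation test, which cannot go below 0.1 with 3 arrays against 3. In diapausing over reproducing females the log2 fold change of DCA_3b exceeded that of DCA_2 by 1.73 and that of DCA_1 by 0.78, and DCA_1 exceeded DCA_2 by 0.96. Over young females the excess of DCA_3b was 1.86 over DCA_2 and 1.27 over DCA_1. In each of these pairs the ratio of the 2 probes did not overlap between the groups, and the exact permutation p was 0.1, or 0.15 after adjustment over the 18 pairs compared. The 2 DCA_3 probes differed from each other by 0.22 over reproducing and 0.09 over young females, and their ratios overlapped (exact permutation p = 0.4 and 0.6). Across the 9 arrays the values of DCA_3a and DCA_3b followed each other most closely (Pearson r = 0.985), followed by those of DCA_1 with DCA_3a (0.876) and DCA_3b (0.853), whereas DCA_2 had r between 0.633 and 0.683 with the other 3. Without reproducing 40 the r of DCA_1 with DCA_2 was 0.887, near that of DCA_1 with DCA_3b (0.911), and DCA_2 had 0.703 with DCA_3a and 0.647 with DCA_3b. These correlations hold the differences between groups and, for DCA_3a with DCA_3b, a shared sequence. The part of weak signal over background in the smaller change of DCA_2 was not tested: its spots were 3.24 to 6.69 times their local background, those of DCA_1 2.30 to 10.1 times and those of the DCA_3 probes 204 to 1469 times. The part of the strand that each probe detects was not tested either.

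Each of the 3 slides held 1 array of each group, so the differences could be read within slides. For the gene, diapausing exceeded reproducing females by 1.84, 1.40 and 1.72 on slides 1, 2 and 3, and exceeded young females by 1.76, 1.29 and 0.99. DCA_3b was particularly even in the comparison with reproducing females, at 2.37, 2.33 and 2.30 on the 3 slides. DCA_3a differed by 2.21, 1.88 and 2.25. DCA_1 differed by 1.53, 0.94 and 2.20, and DCA_2 by 1.26, 0.42 and 0.12. Diapausing females were thus above reproducing females on every slide with every probe. Relative to young females the differences of DCA_2 were 0.82, 0.16 and -0.11, and those of the other 3 probes were positive on all slides. With slide as a block in limma the gene was called in neither comparison, with an adjusted p of 0.0590 over reproducing and 0.0922 over young females.

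The housekeeping genes were read as a check of the scaling. Their mean normalized value was 12.52, 11.38 and 11.51 in diapausing females 27, 42 and 43, against 11.83, 11.88 and 11.40 in reproducing females 22, 23 and 40 and 12.19, 12.15 and 12.07 in young females 12, 16 and 17. The array of diapausing females 27, the highest for *Dca*, was also the highest for these genes. Relative to their mean on the same array, *Dca* was at 0.05 ± 0.21 in diapausing, -1.50 ± 0.17 in reproducing and -1.63 ± 0.17 in young females (log2, SD, n = 3 each). On this scale the spread within diapausing females was less than on the VSN scale. *Dca* was then higher by 1.55 in diapausing over reproducing females (limma adjusted p = 0.00889) and by 1.68 over young females (limma adjusted p = 0.00442). None of the 7 housekeeping genes was called by limma in any comparison, and 0, 0 and 2 of them had an unadjusted p under 0.05 in diapausing over reproducing, diapausing over young and reproducing over young females (8.33%, 10.2% and 23.1% of all genes). They were not steady one by one. Their log2 fold changes ran from -0.65 (*RpL11*) to 1.20 (*Gapdh1*) in diapausing over reproducing females. They ran from -0.63 to -0.10 in diapausing over young and from -1.50 (*Gapdh1*) to 0.26 in reproducing over young females. The values of *Gapdh1* rest largely on 1 array: it was at 12.65 in reproducing females 40, against 15.11 and 14.76 in reproducing females 22 and 23. *eIF-4a* of this set is also on the list of ovary or egg transcripts below.

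The call of the gene in diapausing over reproducing females depended on single arrays more than its size did. With 1 array left out at a time the log2 fold change stayed between 1.41 and 1.87. The limma adjusted p was 0.0236 without diapausing 27 and 0.0478 without reproducing 22. It was 0.0855 without diapausing 42, 0.0835 without diapausing 43, 0.188 without reproducing 23, 0.0732 without reproducing 40, 0.103 without young 12, 0.0978 without young 16 and 0.114 without young 17, and in these 7 fits the gene was not called. Over young females the gene was called in 1 of the 9 fits, without reproducing 40 (log2 fold change 1.30, limma adjusted p = 0.0312). DCA_3b was called in diapausing over reproducing females in all 9 fits (limma adjusted p between 0.00478 and 0.0311) and DCA_3a in 8 of 9, the exception being without reproducing 23 (log2 fold change 2.12, limma adjusted p = 0.0964). Over young females DCA_3b lost its call without young 16 (2.17, limma adjusted p = 0.0626) and without young 17 (2.17, adjusted p = 0.0653). DCA_3a lost it without diapausing 43 (2.21, adjusted p = 0.0583), reproducing 23 (2.07, adjusted p = 0.0555), young 16 (1.99, adjusted p = 0.133) and young 17 (2.14, adjusted p = 0.0932).

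The DCA_3 probes also lost calls in other settings. Over reproducing females, normexp with quantile normalization gave 1.85 for DCA_3b (limma adjusted p = 0.0953) and 1.31 for DCA_3a (limma adjusted p = 0.167). With only the 2 groups in the fit the limma adjusted p was 0.0566 for DCA_3b and 0.129 for DCA_3a. Over young females both lost the call with normexp and quantile normalization (limma adjusted p = 0.0798 for each) and with the deposited table (0.0591 for each). Of 15 alternatives other than leaving out single arrays in turn, DCA_3b was called in 12 and DCA_3a in 11 over reproducing females, and each in 13 over young females.

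**Figure D4:**
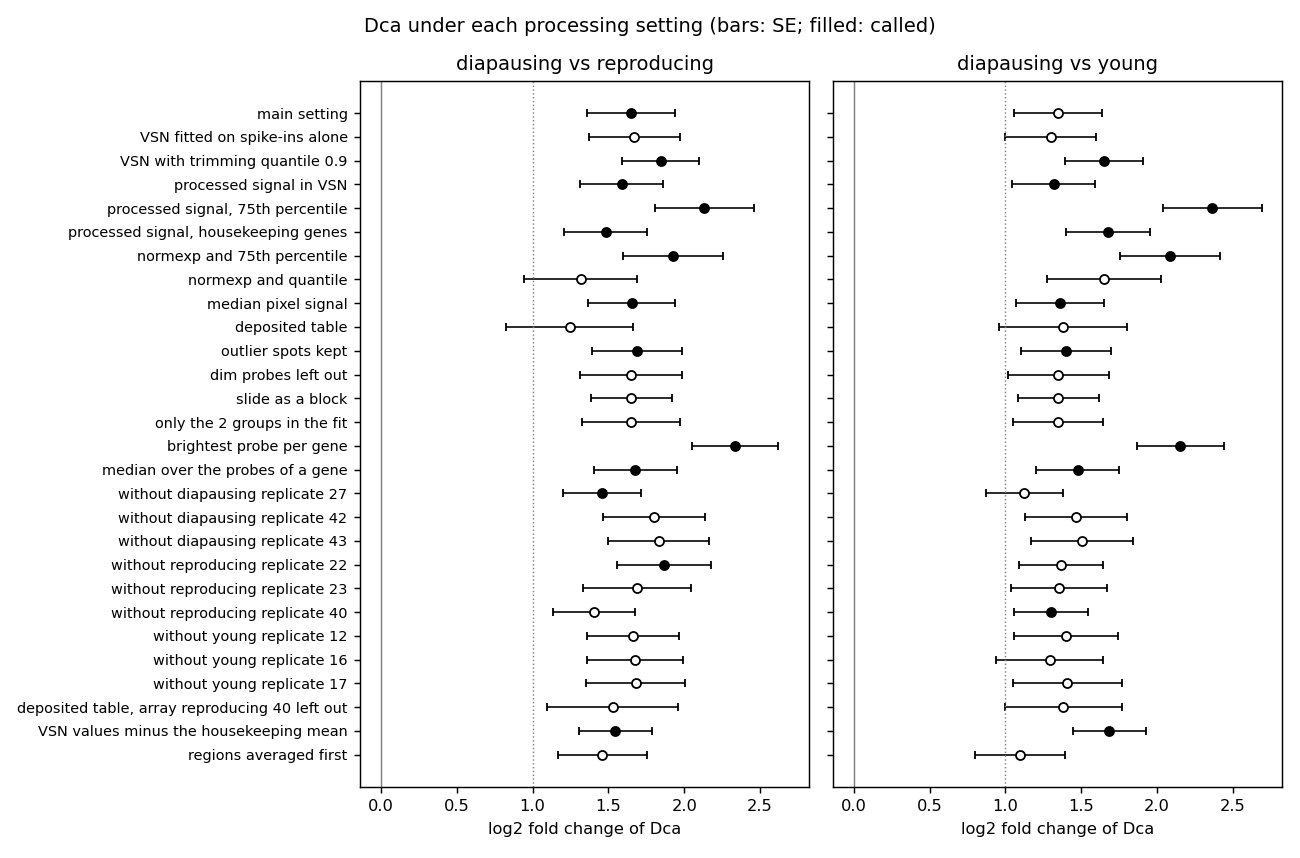
Log2 fold change of *Dca* (4 probes combined, ± SE) in diapausing over reproducing (left) and diapausing over young females (right) under the main setting and 27 alternatives, filled where limma called the gene. All values are positive, between 1.25 and 2.33 over reproducing and between 1.10 and 2.36 over young females, and 12 of the 27 alternatives called the gene over reproducing and 11 over young females.

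The correction for the place on the array on reproducing females 40 touched the 4 probes unequally. Feature Extraction divides each spot by a factor, which was here 0.338 for DCA_1, 1.37 for DCA_2, 1.39 for DCA_3a and 1.56 for DCA_3b. The low raw signal of DCA_1 on this array (103, against 229 and 195 on the other arrays of reproducing females) became 168, against 193 and 169, after background subtraction and this division together. Without this array the VSN log2 fold change of DCA_1 in diapausing over reproducing females was 1.02 and not 1.56, while that of DCA_3b was 2.13 (limma adjusted p = 0.00478) and that of DCA_3a 1.87 (limma adjusted p = 0.0423).

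The deposited table of processed values differed from the scanner files on that same array. In the table DCA_3a was at 111444 and DCA_3b at 106872 in reproducing females 40, within the range of diapausing females (92406 to 161263 for DCA_3a and 91090 to 149263 for DCA_3b). The other reproducing females, 22 and 23, were at 35587 and 25664 with DCA_3a and at 28988 and 22016 with DCA_3b. In the scanner file of reproducing females 40 the same spots were, at 10698 and 10504, among the dimmest of the 9 arrays. DCA_1 and DCA_2 were not raised in this way in the table, where reproducing females 40 had the lowest values of all arrays with both (319 and 165). Over the 197 probes the table's column for this array correlated with its own scanner values at r = 0.916 on the log2 scale, less than with the scanner values of any other array (0.944 to 0.969), whereas the columns of the other 8 arrays correlated with their own at 0.998 or more. Which of the 2 sources holds the sample named in the label was not settled. With the table in place of the scanner values *Dca* was 1.25 higher in diapausing than in reproducing females (limma adjusted p = 0.109), DCA_3b 1.52 higher (limma adjusted p = 0.162) and DCA_3a 1.30 higher (limma adjusted p = 0.191). With that column left out the table gave 1.53 for the gene (limma adjusted p = 0.145), 2.21 for DCA_3b (limma adjusted p = 0.0302) and 1.93 for DCA_3a (limma adjusted p = 0.0700).

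**Figure D5:**
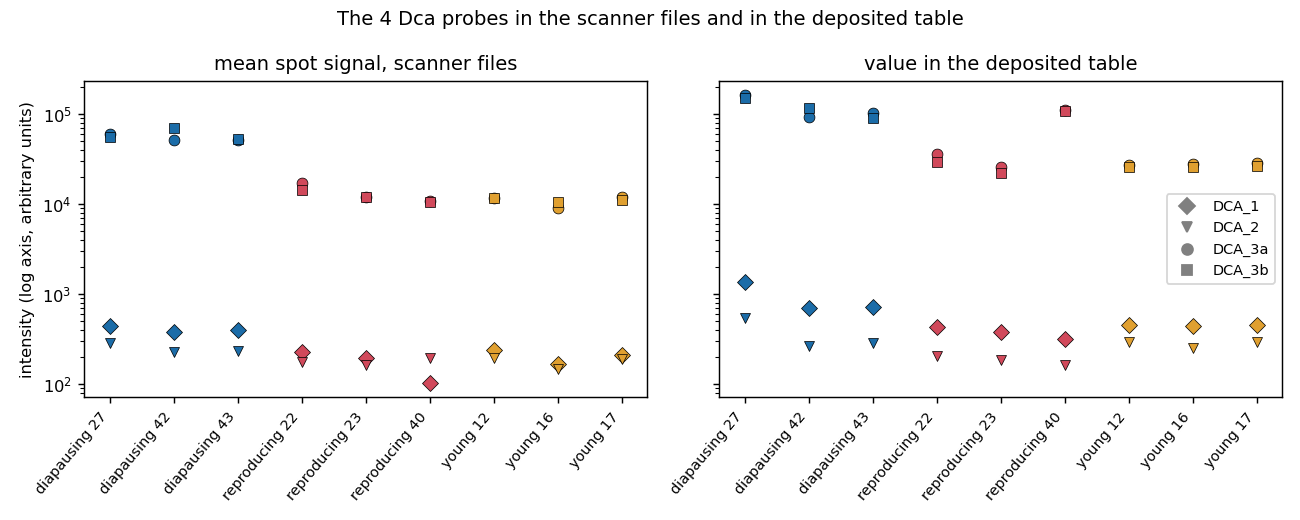
Intensity of the 4 *Dca* probes on the 9 arrays (log axis, arbitrary units), as mean spot signal in the scanner files (left) and as value of the deposited table (right), coloured by group. In reproducing females 40 the DCA_3 probes are at 10698 and 10504 in the scanner file and at 111444 and 106872 in the table, while the DCA_3 values of diapausing females are above those of the 5 remaining samples in both.

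The other cold tolerance gene of the array was not called in any comparison. *Prp5*, a putative RNA helicase of pre-mRNA splicing, had normalized values of 6.08, 4.95 and 5.14 in diapausing females, against 6.47, 6.07 and 5.38 in reproducing females and 5.30, 5.53 and 6.20 in young females. Its log2 fold change was -0.59 in diapausing over reproducing (SE 0.42, limma adjusted p = 0.651), -0.29 in diapausing over young and 0.30 in reproducing over young females. Its groups overlapped in all 3 comparisons.

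Since regucalcin binds calcium, 10 genes of calcium signalling and calcium-dependent channels on the array were set beside *Dca*. Of these, *nan* was well above background on no array, and *trp* and *inaC* on none of reproducing females, so their part in the counts rests on dim signals. In diapausing over reproducing females 5 had positive and 5 negative log2 fold changes, with a median of 0.03 against -0.03 over all genes, and limma called 0 (3 had an unadjusted p under 0.05, against 8.33% of all genes). The largest in size were those of *FKBP59*, an immunophilin bound to a light-gated calcium channel, at -1.86 (limma adjusted p = 0.268), and of *CaMKII*, the calcium/calmodulin-dependent protein kinase, at -1.27 (limma adjusted p = 0.431). In diapausing over young females 9 of the 10 were negative, with a median of -0.48 against -0.39 over all genes. *slo*, a calcium-activated potassium channel, fell by 1.65 in diapausing relative to young females (limma adjusted p = 0.0343) and was the only member called there, 1 of 10 against 1.85% of all genes. In reproducing over young females 8 were negative, with a median of -0.42 against -0.14 over all genes, and *slo* was again the member called (-1.91, limma adjusted p = 0.00933), 1 of 10 against 8.33% of all genes.

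Of the 7 genes placed on the array for diapause, among which *Pi3K92E* was well above background on no array, limma called 0 in diapausing over reproducing and 0 in diapausing over young females, where 1 and 2 of them had an unadjusted p under 0.05 (8.33% and 10.2% of all genes). Their median was 0.12 in diapausing over reproducing females (-0.03 over all genes) and -0.61 in diapausing over young females (-0.39 over all genes). The largest value in diapausing over reproducing females was that of *Adh*, alcohol dehydrogenase, at 0.75 (SE 0.97, limma adjusted p = 0.734). The 1 member called in reproducing over young females was *cpo* (*couch potato*), an RNA-binding protein gene tied to diapause in *D. melanogaster*, which was 1.50 lower in reproducing females on the log2 scale (value -1.50, limma adjusted p = 0.00933). That is 1 of 7, in a comparison with 8.33% of all genes called. *cpo* was at 0.61 in diapausing over reproducing females (limma adjusted p = 0.467).

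Over the 9 arrays, the gene whose values followed those of *Dca* most closely among 79 genes with enough signal was *Pgm*, phosphoglucomutase, which joins glycogen and glucose metabolism (Pearson r = 0.843, Spearman rho = 0.85). Its log2 fold change was 0.65 in diapausing over reproducing and 0.45 in diapausing over young females. Next came *Mpk2*, a stress-activated MAP kinase gene (r = 0.663), the clock gene *per* (0.569), *Adh* (0.523) and *Gapdh1* (0.517). Their Spearman rho was lower, at 0.55 for *Mpk2*, 0.317 for *per*, 0.30 for *Adh* and 0.467 for *Gapdh1*. The lowest correlations were those of *dnc*, a cAMP phosphodiesterase (-0.561), *Dat*, dopamine N-acetyltransferase (-0.554), *CaMKII* (-0.538), *FKBP59* (-0.531) and *cac*, a calcium channel subunit (-0.497). All genes share the arrays and their scaling, and the order depended on it. With the processed signal scaled to the 75th percentile *Pgm* kept the highest value (r = 0.964), followed by *RpL27A* (0.918) and *per* (0.880). With that scaling *Dat* moved to 0.375 and *dnc* to -0.08. Without reproducing 40, *Mpk2* had r = 0.799 and *Pgm* 0.796, so that *Pgm* was no longer ahead of it. *per*, *Adh* and *Gapdh1* then had 0.471, 0.322 and 0.263, while *dnc* had -0.867 and *Dat* -0.772.

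Markers of 3 tissues were read beside *Dca*, since the RNA came from whole bodies. The lists were chosen with earlier results of these data known, so counts of direction in them are description only. Of 10 photoreceptor markers, 9 had positive log2 fold changes with VSN in diapausing over reproducing females (median 0.60), against 52 of 108 genes, and their summed normalized signal was 74909 to 271618 in diapausing and 14817 to 168872 in reproducing females. Of 9 transcripts known to be abundant in ovaries or eggs of *D. melanogaster*, all 9 had negative values (median -0.92), with sums of 64694 to 148893 in diapausing and 82827 to 182728 in reproducing females. Of 9 neuronal markers 4 had positive values (median -0.19), with sums of 6995 to 8829 in diapausing and 7337 to 10292 in reproducing females. The summed ranges overlapped in all 3 lists, and limma called 0 members, against 0.926% of all genes (1, 2 and 0 with an unadjusted p under 0.05, against 8.33% of all genes). Over young females the log2 fold changes with VSN were negative for all 10 photoreceptor markers (median -0.67), all 9 ovary or egg transcripts (median -0.44) and all 9 neuronal markers (median -0.48), where 24 of 108 genes were positive and the median of all genes was -0.39. Of these members limma called 2, *slo* and *Ddc*, both on the neuronal list and lower in diapausing females, against 1.85% of all genes. *Ddc* and *Dat* on this list are enzyme genes, and whether their RNA came from neurons was not tested. The summed signal in diapausing and young females was 74909 to 271618 and 128025 to 178607 for photoreceptors, and 64694 to 148893 and 102144 to 132892 for ovary or egg. For the neuronal list it was 6995 to 8829 and 13827 to 24156, where the ranges did not overlap. That sum holds *Dat*, whose normalized values were 11.14 to 11.34 in diapausing and 11.74 to 12.43 in young females. On no array did the neuronal markers *syt* and *para* exceed the background well, nor did *na* in diapausing and reproducing females or the ovary-list gene *Fmr1* in diapausing females. The photoreceptor markers *inaC* and *trp* failed to do so in reproducing females. The part of tissue makeup in the difference of *Dca* was not tested.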

How the data were processed

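Intensities of 9 one-colour Agilent arrays were deposited by the authors as scanner output of Feature Extraction (version 9.5.1.1 per the file headers), with a mean spot intensity and an intensity after background subtraction and division by a spatial ratio. None was scaled between arrays. The deposited table of processed intensities was an alternative only, as its scaling was not settled.

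Outlier spots were left out. VSN, rewritten in R 4.3.3 (trimming quantile 0.5, 5 slices, 7 rounds), was fitted to the mean intensities of 197 experimental probes and 200 spike-in spots per array. The log2 value of a gene was the mean over its probes. limma 3.58.1 (statmod 1.5.0) was fitted over all 9 arrays to 108 genes and to 197 probes. The procedure was run on simulated data with the same spread in all genes and as many changes up as down. Since the real genes differ in spread, this does not measure its error rates on these arrays. Figures were drawn with matplotlib 3.10.9. Symbols came from the probe names.

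The genes named are *Dca*, the 5 with the highest and 5 with the lowest correlation with it (among genes with a probe well above background on 6 or more arrays), and up to 4 members of each list. The first genes in rank order, *Hsp26* and *Arr2* among them, were added after their values were seen. Members and lists were chosen with earlier results of these data known. Alternatives varied normalization, signal, filter, probe summary, slide and arrays. The table without reproducing 40, regions averaged first, VSN minus the housekeeping mean, and the pairwise probe comparisons were chosen after the data were seen. qRT-PCR was not analysed here. The number of arrays limits the precision.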

Additional observations from a re-analysis of the deposited data

How the results depend on the processing

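No paired analysis was possible because the groups share no replicate numbers, if pairs are taken from those numbers. Arrays could be matched by slide, and the fit with slide as a block ended the call of *Dca* over reproducing females (adjusted p = 0.0590). The log2 fold change of *Dca* stayed positive in all 27 alternatives in diapausing over reproducing females, where it was called in 10 of the 18 alternatives other than leaving out each array in turn (adjusted p between 0.00224 and 0.258), and in all 27 over young females (called in 10 of these 18, adjusted p between 0.00190 and 0.102). Its fold change ranked first of all genes over reproducing females in 23 of the 28 settings and never below 4, and its distance to the median gene was 1.32 to 2.44 there and 1.48 to 2.56 over young females.

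Over reproducing females *Dca* lost its call with VSN on spike-ins alone (1.67), normexp and quantile normalization (1.32), the deposited table (1.25, and 1.53 without reproducing 40), dim probes left out (1.65), slide as a block (1.65), only the 2 groups in the fit (1.65) and regions averaged first (1.46). Over young females it gained a call with a trimming quantile of 0.9 (1.65), the processed signal in VSN (1.32), or scaled by the 75th percentile (2.36) or housekeeping genes (1.68), normexp with the 75th percentile (2.08), the median pixel signal (1.36), outlier spots kept (1.40), the brightest probe (2.15), the median over the probes (1.48) and VSN minus the housekeeping mean (1.68). The cause was not tested. With 1 array left out the value was 1.41 to 1.87 over reproducing females, 1.12 to 1.50 over young females and -0.50 to -0.10 in reproducing over young females.

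In reproducing over young females the sign turned with the processed signal scaled by the 75th percentile (*Dca* 0.23, DCA_1 0.30, DCA_2 0.065, DCA_3a 0.35, DCA_3b 0.21) or to the housekeeping genes (0.19, 0.26, 0.029, 0.31 and 0.18 in that order). It also turned with normexp and the 75th percentile (*Dca* 0.15, DCA_2 0.11, DCA_3a 0.39, DCA_3b 0.26), normexp and quantile normalization (0.33, and 0.91 and 0.67 for the DCA_3 probes), the deposited table (0.14, 0.75 and 0.66) and VSN minus the housekeeping mean (*Dca* 0.14, DCA_2 0.13, DCA_3a 0.39, DCA_3b 0.26). For DCA_3a alone it turned with a trimming quantile of 0.9 (0.090), with the table without reproducing 40 (0.12), and with 1 array left out (-0.33 to 0.16, positive without reproducing 40 and without young 17 at 0.02). None was called in any of them.

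The 1 gene called in diapausing over reproducing females became 0 with spike-ins alone, dim probes left out, slide as a block, only the 2 groups in the fit, the table without reproducing 40 or regions averaged first, and 10 (processed signal, 75th percentile), 7 (processed signal, housekeeping genes), 5 (normexp, 75th percentile), 4 (normexp, quantile), 2 (brightest probe) and 5 (VSN minus housekeeping mean). The 2 called over young females became 0 with spike-ins alone, normexp and quantile, slide as a block or only the 2 groups, 5 with a quantile of 0.9, 8 with the 75th percentile, 4 with the housekeeping genes, 6 with the table and 5 with the brightest probe. The 9 called in reproducing over young females (2 higher, 7 lower) became 20 with the 75th percentile (11 higher, 9 lower), 4 with slide as a block, 5 with only the 2 groups and 4 with the table without reproducing 40. With 1 array left out these counts ran over 0 to 6, 0 to 6 and 0 to 12. The low signal over background of DCA_1 and DCA_2 and the untested strand of the probes limit what these 2 regions can show. Differences between regions and between strands cannot be told apart here.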
